A study of Mus musculus with 13 samples.

Results

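Cajal-Retzius neurons were sought among single nuclei of whole mouse hippocampus, and 216 of 105427 retained barcodes (0.205%) met the rule that defined them. Barcodes were retained from 500 detected genes upward, with mitochondrial UMIs making up no more than 5%, where a UMI (unique molecular identifier) stands for 1 captured RNA molecule. A nucleus was counted as Cajal-Retzius when it held at least 2 UMIs of Reln, at a rate of at least 5 per 10000 UMIs. It also had to hold a UMI of at least 2 of the 4 transcription factor genes Trp73, Lhx1, Lhx5 and Ebf3, and fewer than 2 UMIs of Gad1 and Gad2 together. These genes chose the nuclei, so their levels are given as a description and support nothing else.

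Cajal-Retzius neurons are among the earliest-born neurons of the cortex and hippocampus. They secrete reelin, the large extracellular protein encoded by Reln, which binds the receptors Vldlr and Lrp8 on other neurons, acts through the adaptor Dab1 and guides the layering of migrating neurons. Most die after birth in the neocortex, whereas in the hippocampus some persist into adulthood along the hippocampal fissure and the outer molecular layer of the dentate gyrus. They are glutamatergic, which separates them from the Reln-expressing inhibitory interneurons of the same layers.

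The series held 13 female C3B6F1 hybrid mice (written C3HB6F1 in part of the labels), with 1 library per mouse. Young mice were 5 months old and fed ad libitum (n = 3). Old mice were 24 months old and were fed ad libitum (n = 3, replicates 1, 2 and 4), placed on dietary restriction at 20 months (acute restriction, n = 3) or placed on it at 5 months (long-term restriction, n = 4). No allele or transgene was listed, frozen tissue was used, and nuclei were sorted by Hoechst DNA stain without a neuronal marker. Each library held 3524 to 12368 barcodes and 38546292 to 80538090 UMIs. Barcode sequences were rarely shared between libraries (1358 of 104391 distinct sequences), and no sequence was a member in more than 1 library.

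Reln is shown first because it defines the nuclei, followed by Tmem163 and Cacna2d2, 2 of the 15 genes with the highest ratio of level in these nuclei to level in all others. Each line is a promoter window from RefSeq on GRCm38.p6, from 250 bases before to 50 bases after a transcription start, written 5′ to 3′ on the strand of the gene, with the letters TAATTA in capitals. TAATTA is the core letters bound by many homeodomain factors, the family of Lhx1 and Lhx5, and reads the same on both strands.
Reln (chr5:22344656-22344955, minus strand): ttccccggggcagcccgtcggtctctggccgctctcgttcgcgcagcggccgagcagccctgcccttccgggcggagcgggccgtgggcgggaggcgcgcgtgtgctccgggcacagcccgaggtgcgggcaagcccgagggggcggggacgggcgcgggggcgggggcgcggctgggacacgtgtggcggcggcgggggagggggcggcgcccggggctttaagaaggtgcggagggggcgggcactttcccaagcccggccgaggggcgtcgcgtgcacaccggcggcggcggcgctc
Tmem163 (chr1:127677972-127678271, minus strand): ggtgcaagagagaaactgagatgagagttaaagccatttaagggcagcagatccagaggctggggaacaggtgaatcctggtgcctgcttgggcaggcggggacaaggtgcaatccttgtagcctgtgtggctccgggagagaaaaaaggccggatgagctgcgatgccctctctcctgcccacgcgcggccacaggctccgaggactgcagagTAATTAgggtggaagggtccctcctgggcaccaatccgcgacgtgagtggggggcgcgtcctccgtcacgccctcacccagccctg
Cacna2d2 (chr9:107399630-107399929, plus strand): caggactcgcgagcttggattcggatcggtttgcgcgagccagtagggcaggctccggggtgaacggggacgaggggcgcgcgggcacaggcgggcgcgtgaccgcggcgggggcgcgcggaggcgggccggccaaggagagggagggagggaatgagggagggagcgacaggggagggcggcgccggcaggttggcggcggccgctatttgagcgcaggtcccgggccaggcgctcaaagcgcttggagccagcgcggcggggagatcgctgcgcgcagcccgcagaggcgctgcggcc
Of 21 genes sought (the rule's genes, the 15 leading genes and Nrxn3), 14 had an entry in the table. TAATTA was in the window of 1 of them, Tmem163, 36 bases before the start, and in 5.29% of 32851 windows of the same length in the genome table. The palindromic core of EBF sites, the family of Ebf3, was searched on both strands and was in 0 of the 14 genes' windows and in 0.904% of all windows. A match is a description of these letters only.

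All 216 nuclei held Reln (chr5:21884454-22344702, minus strand), with a median of 21 UMIs per nucleus (3 to 67). Trp73, a p53-family transcription factor, was detected in 192 (88.9%), and Ebf3, an early B-cell factor family member, in 183 (84.7%). The LIM homeodomain genes Lhx1 and Lhx5 were detected in 90 (41.7%) and 35 (16.2%). Exactly 2 of the 4 factors were detected in 151 nuclei, 3 in 62 and all 4 in 3, and the commonest combination was Trp73 with Ebf3 alone (98 nuclei). Just inside the rule, the 151 nuclei with exactly 2 factors had a median of 20 Reln UMIs, and 6 nuclei held 1 UMI of Gad1 or Gad2. Just outside it, 148 nuclei met the Reln and Gad conditions with 1 factor and had a median of 13 Reln UMIs, while 649 with no factor had a median of 8. A further 4 nuclei failed only on Gad UMIs and 6 only on Reln. 

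Of the genes outside the rule, Ndnf and Slc17a6 went with the label and Calb2 did not. Ndnf (chr6:65671590-65712326, plus strand, GRCm38), which encodes a secreted neurotrophic factor and is expressed by Cajal-Retzius cells, was detected in 200 of 216 nuclei (92.6%, exact 95% interval 88.2 to 95.7%) at a median depth of 2453 UMIs. It was detected in 41.0% of 1242 Reln-positive inhibitory nuclei at a median of 8588 UMIs and in 0.537% of 8379 Prox1-high nuclei at 5930 UMIs, the latter a class that should lack it. Reln-positive inhibitory nuclei met the same Reln condition with at least 2 UMIs, and 5 per 10000, of Gad1 and Gad2, and fewer than 2 of the factors. Prox1-high nuclei, chosen by the granule cell factor Prox1, met the same limits for that gene, with fewer than 2 UMIs of Gad and of Reln. After thinning each nucleus to 2000 UMIs, the expected share with Ndnf was 86.3% in 142 members (74 shallower members left out), 24.4% in the inhibitory nuclei (2 left out) and 0.208% in the Prox1-high nuclei (389 left out). Among the nuclei left out of the rule, Ndnf was in 81.8% of those with 1 factor and 9.24% of those with none.

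Slc17a6, the vesicular glutamate transporter VGLUT2, was detected in 65 members (30.1%), in 0.725% of Reln-positive inhibitory nuclei and in 0.370% of Prox1-high nuclei. Thinned, these shares were 19.8%, 0.139% and 0.160%. Slc17a7, the transporter VGLUT1 of most hippocampal excitatory neurons, was in 35 members (16.2%) and in 51.2% of all other barcodes, and thinned in 10.5% and 23.6%. Calb2, which encodes calretinin, a protein used to stain Cajal-Retzius cells, was in 1 of 216 nuclei (0.463%) and in 0.585% of Prox1-high nuclei, so these counts did not lift it above background.

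Levels were compared as CPM (counts scaled to the same total in every sum) of the summed counts of each library's members. Only the 8 libraries with at least 10 members entered: young 1, 2 and 3, old ad libitum 2 and 4, acute restriction 3 and long-term restriction 2 and 4. All values against other barcodes of the same libraries are descriptions without a test, because the rule chose these nuclei. Of 12 Cajal-Retzius genes listed outside the rule, 6 were above all other barcodes in 8 of 8 libraries (Ndnf, Nhlh2, Tbr1, Cacna2d2, Slc17a6 and Emx2), and none was below them in all 8. Only 1 of the 12 was at 10 CPM or more in other barcodes, and it was above. Of all 9471 genes at that level, 5.70% were above in all 8, and no such share was counted for genes below it. Ndnf stood at 1776 ± 422 CPM (SD, n = 8) against 6.87 in the other barcodes and 211 in the Reln-positive inhibitory nuclei. Nhlh2, a basic helix-loop-helix factor, stood at 49.0 ± 20.6 CPM against 0.152, and Tbr1, a T-box factor of glutamatergic neurons, at 61.4 ± 25.5 against 7.16. Emx2, a homeobox factor of the cortical hem and hippocampus, stood at 70.6 ± 32.5 CPM against 6.51, with an antisense gene, Emx2os, overlapping it. Lhx1os, a long noncoding RNA beside Lhx1, stood at 84.5 ± 43.6 CPM against 0.173, and the chemokine receptor gene Cxcr4, which keeps young Cajal-Retzius cells beneath the meninges, at 17.1 ± 20.3 against 0.215 with 8 nuclei holding a UMI.

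The 15 leading genes, those with the highest ratio to other barcodes among genes detected in at least 25% of members, had ratios of 29.6 to 258. They were Ndnf, Gm10475, Cd274, Cacna2d2, Casz1, Dach1, Eln, Vmn2r1, Gm29683, Tmem163, Lrig3, Eya2, Cdh4, Gm4681 and Utrn. Of 1712 genes outside the rule that reached this detection, 30 were at least 10 times the level of other barcodes, and 387 were above them in all 8 libraries. Gm10475 lies antisense inside Reln (chr5:21910931-21954014, plus strand), and whether the counting used strand is not given in the sources used here, so its 209 ± 108 CPM may hold Reln reads. The same caution applied to Tmem163, which overlaps Mgat5 on the other strand.

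Several of these genes stood far above both comparison classes. They were also frequent in the 148 nuclei left out for having 1 factor: Dach1 was in 89.2% of these and 94.4% of members, Tmem163 in 83.1% and 82.4%, Cacna2d2 in 64.9% and 69.9%, and Cd274 in 22.3% and 25.0%. Dach1, a transcriptional cofactor of the retinal determination network (chr14:97786853-98169765, minus strand), stood at 2055 ± 637 CPM, against 44.0 in other barcodes and 17.0 in Reln-positive inhibitory nuclei. Eya2, from the same network, stood at 129 ± 44.6 CPM against 4.05 and 0.447. Casz1, a zinc-finger transcription factor, stood at 117 ± 54.4 CPM against 2.50 and 3.92. Cd274, which encodes the immune checkpoint ligand PD-L1 (chr19:29367455-29388095, plus strand), stood at 108 ± 62.0 CPM against 0.917 and 0.273, with a UMI in 54 members (25.0%) and in 0.406% of Prox1-high nuclei. Its 8 library values ran from 31.2 CPM in long-term restriction 2 to 235 CPM in long-term restriction 4, the same group. Tmem163, a zinc transporter, stood at 899 ± 191 CPM against 23.6 and 6.77. Eln, which encodes elastin, stood at 318 ± 109 CPM against 6.81 and 19.1. Cdh4, the adhesion molecule R-cadherin, stood at 1178 ± 354 CPM against 37.8 and 87.4, and Utrn, the dystrophin homologue utrophin, at 1593 ± 270 CPM against 53.8 and 231.

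**Figure D1:**
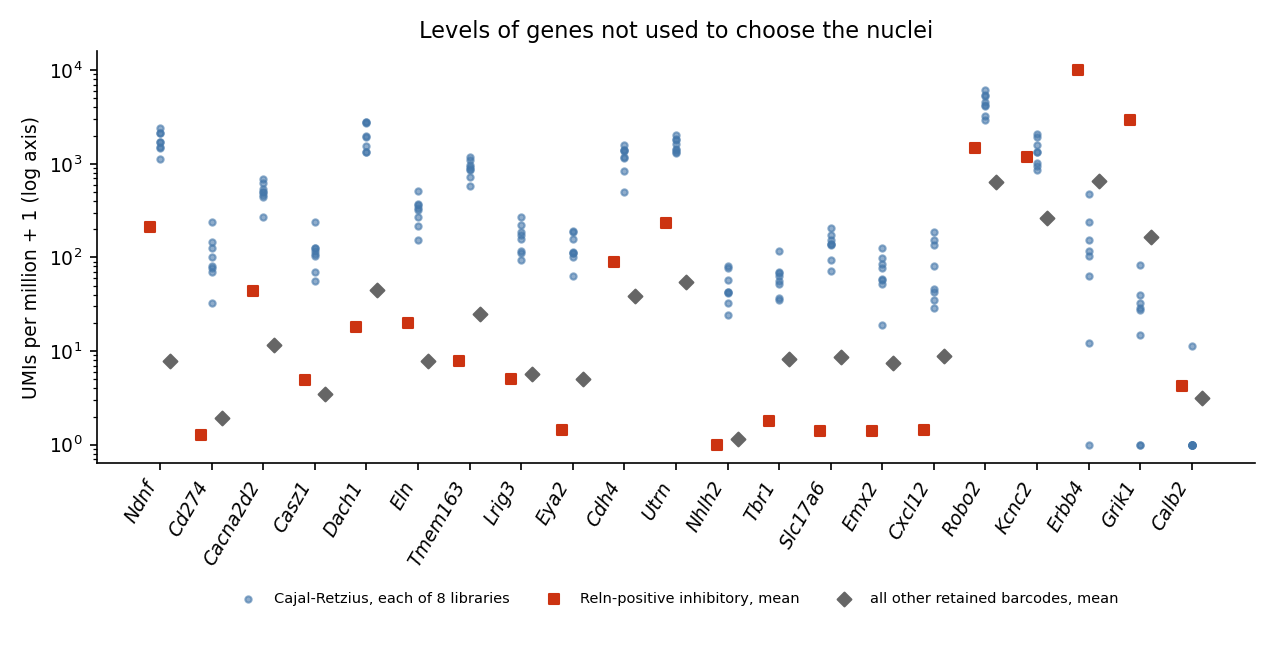
Levels of 21 genes not used to choose the nuclei, as CPM plus 1 on a log axis. Blue points are the summed Cajal-Retzius nuclei of each of 8 libraries, red squares the mean of Reln-positive inhibitory nuclei and grey diamonds the mean of all other retained barcodes. The members sit above both for genes from Ndnf to Cxcl12 (Ndnf mean 1776), while Erbb4 and Grik1 are far higher in the inhibitory nuclei (10143 and 2953 CPM).

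Of 14 pathway genes outside the rule, only Crk, an adaptor downstream of Dab1, was above other barcodes in all 8 libraries (90.1 ± 23.5 CPM against 45.5), and only Dab1 was below them in all 8 (836 ± 531 against 3085). Among the 13 at 10 CPM or more in other barcodes, that is 7.69% above and 7.69% below, against 5.70% and 10.1% of all 9471 genes at that level. The receptor gene Vldlr stood at 13.5 ± 17.3 CPM against 35.6, with a UMI in 10 nuclei. Lrp8, the other receptor gene, stood at 90 ± 33.7 CPM against 57.8 and was higher in 7 of 8 libraries.

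Transmitter receptor genes at 10 CPM or more in other barcodes were below them in all 8 libraries for 10 of 15 ionotropic glutamate receptor genes and 9 of 12 GABA-A receptor genes. Of all 9471 genes at that level outside the rule, 10.1% were below in all 8 libraries and 5.70% above. In sums this small, a single UMI can put a weakly expressed gene above the other barcodes in a library. No share matched for level was counted, so the shares below were not read as traits of these or later lists. Of 17 ionotropic glutamate receptor genes, 11 were below other barcodes in all 8 libraries, and Gria4, an AMPA receptor subunit, was the 1 above them (1081 ± 363 CPM against 420). The NMDA subunits Grin2a and Grin2b stood at 660 ± 444 and 498 ± 199 CPM against 2514 and 1665. Grik1, a kainate receptor subunit of interneurons, stood at 27.5 ± 26.2 CPM against 2953 in the Reln-positive inhibitory nuclei. Of 12 GABA-A receptor genes, 9 were below other barcodes in all 8 libraries and none was above. Slc12a5, the chloride exporter KCC2 of mature neurons, stood at 38.5 ± 21.5 CPM against 102, lower in 8 of 8 libraries, while the importer Slc12a2 (NKCC1) stood at 61.2 ± 21.1 against 65.6, lower in 5. Erbb4, the neuregulin receptor of interneurons, stood at 144 ± 153 CPM against 10143 in the Reln-positive inhibitory nuclei, whereas Kcnc2, a Kv3 potassium channel, stood at 1388 ± 452 against 1167.

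Guidance genes split in both directions. Of 21 listed, 17 were at 10 CPM or more in other barcodes, and of these 4 (23.5%) were above them in all 8 libraries (Robo1, Robo2, Dcc and Epha3) and 10 (58.8%) were below, against 5.70% and 10.1% of all genes at that level. Detection bears on such shares: of the 1712 genes with a UMI in at least 25% of members, 387 were above in all 8 libraries. The share above was therefore not read as a trait of the list. Nor was the share below, since no share matched for level was counted. Of the other 4 listed, Cxcl12 was above in all 8. Robo2, a receptor for Slit ligands, stood at 4496 ± 1099 CPM against 636, and the ephrin receptor Epha3 at 797 ± 187 against 217. Slit1, Slit2 and Slit3, the ligands, were among those below. Cxcl12, the ligand of Cxcr4, was detected in 39 members (18.1%) and stood at 87.9 ± 61.9 CPM, against 7.80 in other barcodes and 0.421 in the inhibitory nuclei. Among 15 calcium channel genes, all at 10 CPM or more, Cacna1a, Cacna2d1 and Cacna2d2 (20%) were above in all 8 libraries and 5 (33.3%) were below, against the same 5.70% and 10.1%. The 387 of 1712 better detected genes above in all 8 stand beside this share too. Cacna2d2, an auxiliary subunit, stood at 502 ± 126 CPM against 10.5 and 43.3.

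Of 20 survival and death genes outside the rule, 10 were at 10 CPM or more in other barcodes, and of these 2 (20%) were above in all 8 libraries, Ntrk2, the BDNF receptor TrkB (1117 ± 278 CPM against 414), and Mdm2, the p53 ubiquitin ligase (93.7 ± 44.4 against 47.3), and 1 (10%) was below, against 5.70% and 10.1% of all genes at that level. No member held a UMI of Ngfr or of the p53-family gene Trp63. Of 16 glucocorticoid and fasting response genes, 8 were at that level, and of these Klf9, a glucocorticoid-induced repressor, was above in all 8 libraries (118 ± 47.6 against 65.8, 1 gene or 12.5%) and 2 (25%) were below. Genes below 10 CPM were left out of these counts, since sums this small can miss them. Of the 1712 genes with a UMI in at least 25% of members, 387 were above in all 8 libraries, so these shares above were not read as traits of the lists.

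Of the marker lists of other cell classes, the granule, CA1 and CA3 sums stayed below those of the other barcodes in all 8 libraries. Granule markers summed to 270 to 986 CPM in young members, 472 to 764 in old ad libitum, 747 in acute restriction 3 and 312 to 498 in long-term restriction, against 1037 to 1379 in the other barcodes. CA1 markers summed to 116 to 359, 382 to 486, 172 and 156 to 332 CPM in the same order, and CA3 markers to 38.5 to 144, 135 to 194, 80.5 and 13.8 to 62.4. Up to 4 of the 5 markers in each of the granule and CA3 lists, and up to 3 in the CA1 list, were at 0 in a library. The 10 inhibitory markers summed to 1084 to 2118 CPM in young, 1360 to 1554 in old ad libitum, 1126 in acute and 1828 to 2029 in long-term restriction libraries, with 2 to 8 at 0. These sums were above those of the other barcodes of the same library in all 8 libraries, which ran from 765 to 1301 CPM. Kcnc2 supplied 863 to 2080 CPM of these sums, and the 7 others outside the rule, which limited Gad1 and Gad2, summed to 11.2 to 514 CPM, below the other barcodes in all 8 libraries. Some small glial and vascular lists passed the other barcodes in some libraries. Sums reached 627 CPM of oligodendrocyte markers (613 in the other barcodes of that library) and 154 of precursor markers (37.4) in young libraries. They reached 157 of microglial markers (70.5) in old ad libitum 2 and 166 of endothelial markers (17.6) in long-term restriction 4. Endothelial sums also passed the other barcodes in young 2 and 3, old ad libitum 2 and acute restriction 3, at 10.3 to 34.5 CPM. Mural sums did so in young 1, old ad libitum 2 and acute restriction 3. Scrublet, which scores each barcode by its likeness to simulated doublets, placed 31 members (14.4%) among its top scores, against 7.01% of all retained barcodes. These values stand beside the age and diet comparisons, and their part in them was not tested.

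The nuclei were few in every library, and their share differed between libraries of 1 group. The 3 young libraries held 10, 43 and 37 (0.121%, 0.432% and 0.467% of retained barcodes), and old ad libitum 1, 2 and 4 held 4, 25 and 18 (0.114%, 0.249% and 0.271%). Acute restriction 1, 2 and 3 held 0, 5 and 29 (0%, 0.0695% and 0.235%), and long-term restriction 1 to 4 held 4, 13, 7 and 21 (0.0392%, 0.161%, 0.160% and 0.266%). The groups overlapped, and the 0 of 9007 in acute restriction 1 allows a share of up to 0.0333% by the floor of 3 counts (0.0409% is the upper end of the exact 95% interval), for counting error only. The replicate numbered 1 was the lowest of its group in all 4 groups, and those 4 libraries together held 18 of 30986 barcodes against 198 of 74441 in the other 9; what the number stands for is not given in the sources used here.

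Mean shares were 0.340% ± 0.190 (SD, n = 3) in young mice, 0.211% ± 0.0852 (n = 3) in old ad libitum mice, 0.102% ± 0.121 (n = 3) under acute and 0.156% ± 0.0927 (n = 4) under long-term restriction. Across the 4 groups, the F statistic of the log2 odds was 1.62, with an exact permutation p of 0.217 over 1201200 assignments of libraries. The log2 odds differed by -0.52 between old and young mice, -0.62 between long-term restriction and old ad libitum, -2.16 between acute restriction and old ad libitum, and 1.55 between long-term and acute restriction. Exact two-sided permutation p-values were 0.6, 0.571, 0.2 and 0.371, each 0.6 after adjustment over the 4 contrasts, and the smallest p these designs allow is 0.1 for 3 against 3 and 0.0286 for 3 against 4. The contrasts with acute restriction rest on acute restriction 1, which held no member: without it, the log2 odds differed by -0.62 from old ad libitum and by 0.01 between long-term and acute restriction, and the exact permutation p over groups was 0.488. Without acute restriction 3, the exact permutation test over groups gave p = 0.0376. Without young 1 the ageing difference was -1.13 with no overlap (exact permutation p = 0.1, adjusted 0.4), and leaving out each library in turn it ran from -1.13 to -0.16, the latter without old ad libitum 1. The long-term difference ran from -0.97 without old ad libitum 1 to -0.07 without long-term restriction 1. Without all 4 libraries numbered 1, the ageing and acute differences were -0.78 and -0.98, each with no overlap (exact permutation p = 0.333, the smallest possible for 2 against 2), and the exact permutation p over groups was 0.0929.

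Depth bears on this share, because the rule needs several UMIs. Young members had median UMIs of 2132, 1651 and 1973 in libraries 1 to 3, and old ad libitum members had 5296.5, 2635 and 2982 in libraries 1, 2 and 4. Among libraries with at least 10 members, old exceeded young by 0.56 on the log2 scale with no overlap (exact permutation p = 0.1, the smallest possible, adjusted 0.4). Relative to the other barcodes of the same library, which also differed in depth, the difference was 0.09 (exact permutation p = 0.7). Thinning every barcode to 2000 UMIs left 22, 27, 24 and 29 members in the young, old ad libitum, acute and long-term groups, with 3045, 1588, 3646 and 2538 shallower barcodes left out. Among those left out were 53 of the 90 young members, against 8 of 47, 5 of 34 and 8 of 45 in the other groups, so thinning itself removed more young members. The mean thinned shares were 0.101% ± 0.0908, 0.130% ± 0.0630, 0.0832% ± 0.104 and 0.113% ± 0.0916 (SD, n = 3, 3, 3 and 4), and the ageing difference in log2 odds was 0.61. No direction with age was read from either share.

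**Figure D2:**
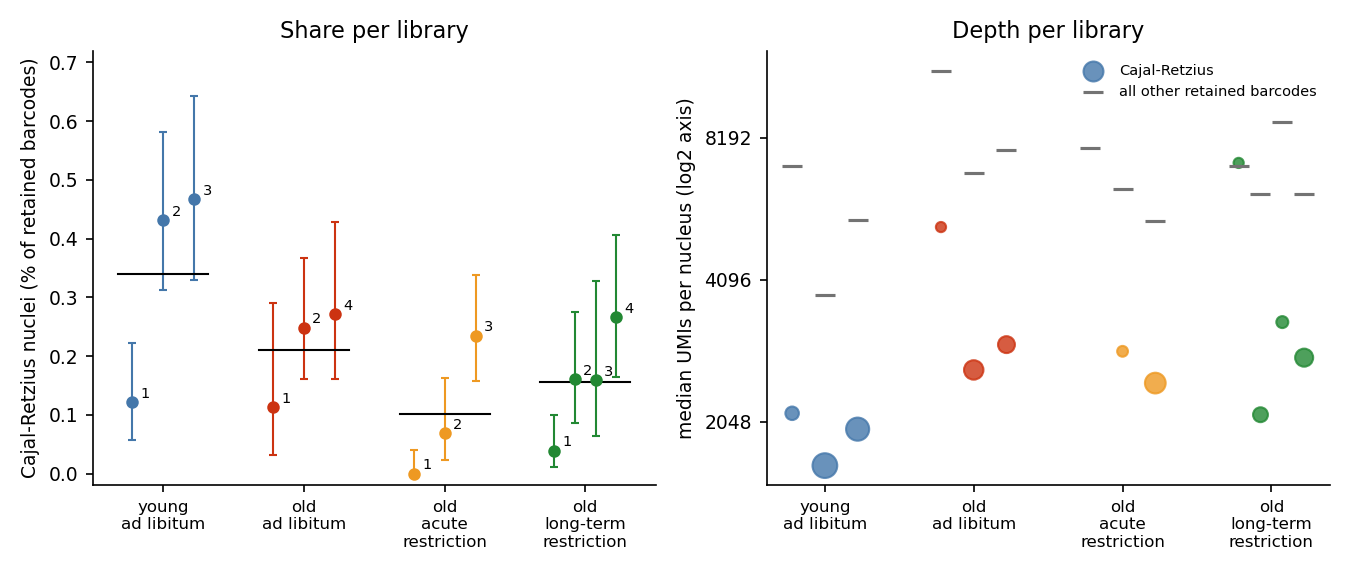
Left, the share of Cajal-Retzius nuclei among retained barcodes in each of 13 libraries, labelled by replicate number, with exact 95% binomial intervals and a black line at each group mean. Right, the median UMIs per Cajal-Retzius nucleus (points, larger with more nuclei) and per other barcode (grey dashes) on a log2 axis. Groups overlap in share, and the 3 young libraries hold the shallowest members (1651 to 2132 UMIs) apart from long-term restriction 2 (2117).

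Expression was tested on the summed counts with edgeR's quasi-likelihood test, and 2799 genes outside the rule passed its filter on low counts. Between old and young mice fed ad libitum, 1 of 2799 genes was called at a Benjamini-Hochberg adjusted p below 0.05 (0.0357%), and 179 had an unadjusted p below 0.05, where chance alone gives 140. The called gene was Nrxn3, a neurexin, a presynaptic adhesion protein (chr12:88722876-90334935, plus strand, GRCm38). Its log2 CPM (prior count 2) was 9.03, 9.50 and 8.96 in young 1 to 3 and 11.42 and 11.24 in old ad libitum 2 and 4. Both old libraries were above all 3 young ones, and edgeR gave a log2 fold change of 2.20 (SE 0.315, adjusted p = 0.000236). Acute restriction 3 stood at 9.45, and long-term restriction 2 and 4 at 8.87 and 9.97, all below both old ad libitum libraries. DESeq2 also called Nrxn3 and no other gene.

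This call rested on few nuclei. Nrxn3 had a UMI in 88 of 216 members, and 10 nuclei held 66.5% of its UMIs, against 15.3% for Ndnf, a gene outside the rule. In old ad libitum 2, 1 nucleus held 108 of 186 Nrxn3 UMIs, and in old ad libitum 4, 2 nuclei held 70 and 46 of 133. Leaving out the 13 members above 8000 UMIs, 6.02% of members spread over 8 libraries, brought the Nrxn3 estimate to 0.37 (edgeR adjusted p = 0.849). Those 13 nuclei held 58.7% of Nrxn3 UMIs, 5.28% of Ndnf UMIs and 22.9% of all member UMIs, and 8 of them had a top Scrublet score. With the top-scored barcodes removed, Nrxn3 stayed among 16 called genes. It was not called after thinning to 2000 UMIs (1.47, edgeR adjusted p = 0.0717), a setting that also left out young 1. It was also not called with at least 3 factors and sums of at least 5 nuclei together (2.02, adjusted p = 0.0900). Nor was it called with sums of at least 5 nuclei alone (2.16, adjusted p = 0.221) or with the median UMIs per nucleus as a covariate (1.95, adjusted p = 0.999). Summed CA1 markers were 116 to 359 CPM in young and 382 to 486 in old ad libitum members, and 582 to 760 and 871 to 1079 in their other barcodes, and their part in the result was not tested.

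The number of calls with age varied with the libraries and settings used. It was 31 without young 1, of which 28 were lower in old mice, 2 without old ad libitum 2, and 0 with the median UMIs per nucleus as a covariate or with sums of at least 5 nuclei. Without the nuclei above 8000 UMIs it was 9, with Kctd8, an auxiliary GABA-B receptor subunit, higher (1.24 on the log2 scale, adjusted p = 0.0215) and 8 lower. The lower ones were Cadm2, Egfem1, Mctp1, Rbfox1, Gm19710, Gm35188, Gm42439 and Gm44686, and these 9 were named after their values were seen. None of the 9 was called with all members, and the directions given are those of this setting only. Gm44686, a noncoding gene, had log2 CPM of 8.12, 9.31 and 8.57 in young 1 to 3 and 6.55 and 7.17 in old ad libitum 2 and 4. Its change was -2.35 (SE 0.518, edgeR adjusted p = 0.0766) with all members. Malat1, an abundant nuclear noncoding RNA, had log2 CPM of 16.57, 17.31 and 16.60 in young and 15.97 and 15.78 in old ad libitum libraries, and its change was -0.99 (SE 0.252, edgeR adjusted p = 0.118). Malat1 was lower at an adjusted p below 0.05 in 7 of the 21 settings run, and was named for that after its values were seen. These settings overlap, so their number does not count separate tests. Thinning and the fit without young 1 both left out young 1. The replicate block and the term for libraries numbered 1 each gave young 1 a term of its own.

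**Figure D3:**
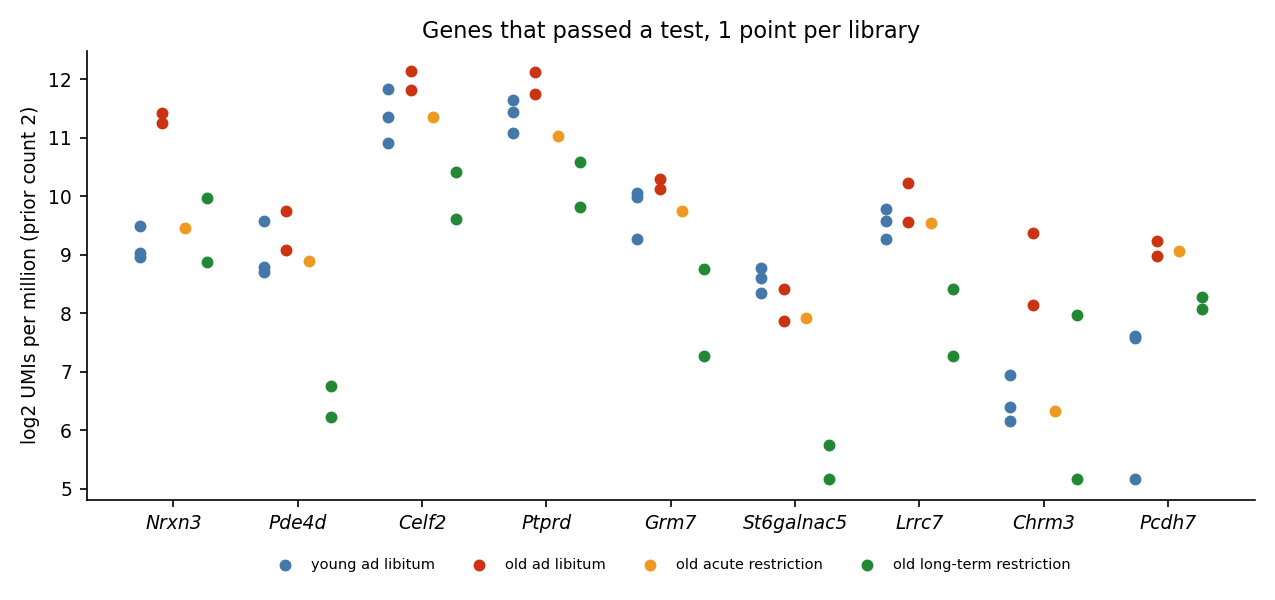
Log2 CPM (prior count 2) of the 9 genes that passed a test, with 1 point per library and groups side by side (3 young, 2 old ad libitum, 1 acute and 2 long-term libraries). Nrxn3 is high in both old ad libitum libraries (11.24 and 11.42), and Pde4d and St6galnac5 are low in both long-term restriction libraries.

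**Figure D4:**
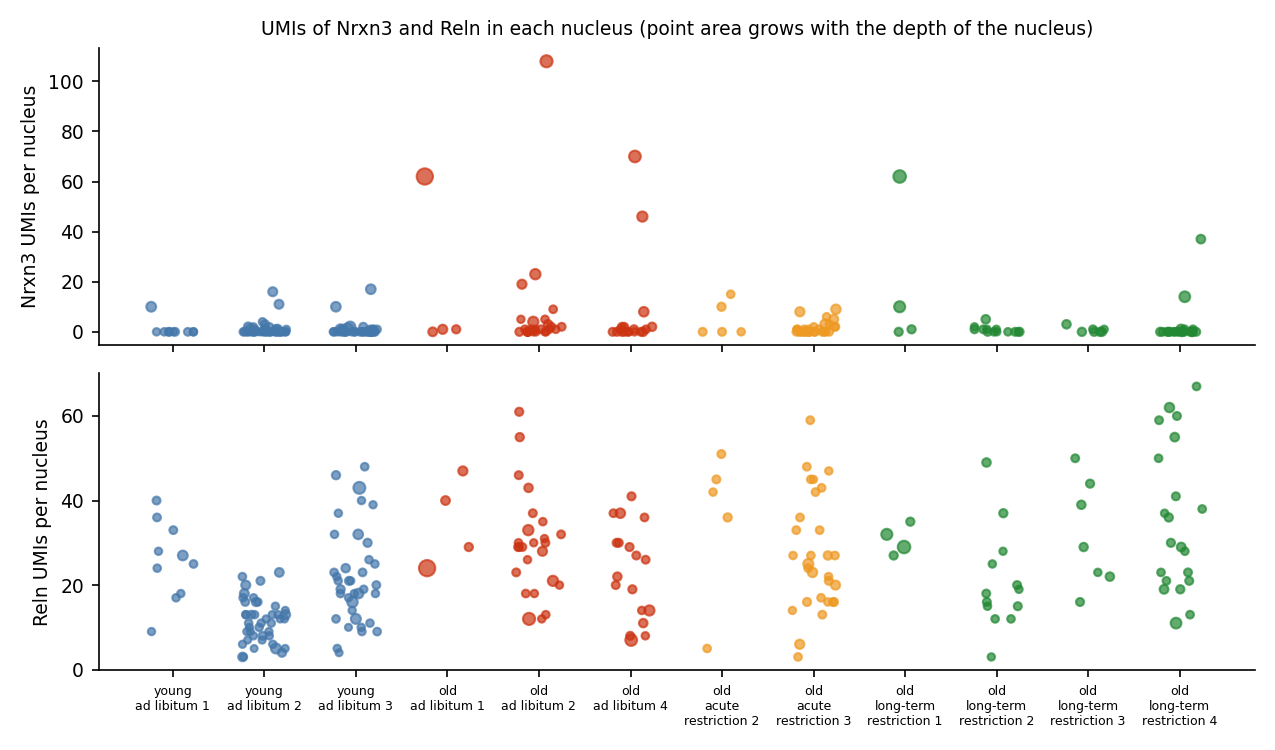
UMIs of Nrxn3 (top) and Reln (bottom) in each of the 216 nuclei by library, with point area growing with the depth of the nucleus and colour giving the group. A few deep nuclei carry most Nrxn3 UMIs (up to 108 in 1 nucleus), while Reln, which the rule required, runs from 3 to 67 UMIs.

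The listed genes gave no call with age. Ndnf had a log2 fold change of -0.25 (SE 0.261), Slc17a6 of -0.09 (SE 0.506) and Cacna2d2 of 0.36 (SE 0.347), with edgeR adjusted p-values of 0.941, 0.983 and 0.928. Ndnf stood at 2427, 1520 and 1688 CPM in young and 1483 and 1721 CPM in old ad libitum libraries, which overlapped. Of 16 tested guidance genes, 12 had a positive estimate, with a median of 0.33, against 52.1% positive and a median of 0.03 over all genes tested. Cxcl12 stood at 154, 134 and 79.9 CPM in young and 44.9 and 27.8 CPM in old ad libitum libraries, a change of -1.65 (SE 0.784, edgeR adjusted p = 0.755), and the summed counts behind the old values were 4 and 2 UMIs. Of 12 tested glutamate receptor genes, 9 had a positive estimate (median 0.12), and of 6 GABA-A receptor genes, 4 (median 0.17).

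Under long-term restriction, against old ad libitum mice, 7 of 2799 genes were called (0.25%), all lower, and 204 had an unadjusted p below 0.05, where chance alone gives 140. They were Pde4d, Celf2, Ptprd, Nrxn3, Grm7, St6galnac5 and Lrrc7. None is on the list of Cajal-Retzius markers, and their levels in other barcodes were 2.40 to 3.83 times those in the members. Pde4d, a cAMP phosphodiesterase (chr13:108449948-109953461, plus strand), had log2 CPM of 9.75 and 9.07 in old ad libitum 2 and 4 and 6.23 and 6.75 in long-term restriction 2 and 4. The groups, of 2 libraries each, did not overlap, with 57 and 28 UMIs against 1 and 4, and edgeR gave -3.41 (SE 0.588, adjusted p = 0.00477). Young libraries stood at 8.70 to 9.58 and acute restriction 3 at 8.90, also above long-term restriction 2 and 4. Long-term restriction 1, left out with 4 nuclei, held 25 Pde4d UMIs in a sum of 33863, 24 of them in 1 nucleus. Long-term restriction 2 held its 1 in 32039, and long-term restriction 3, left out with 7 nuclei, held 5 in 22518.

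Celf2, an RNA-binding splicing regulator (chr2:6539694-7509563, minus strand), had log2 CPM of 12.14 and 11.81 in old ad libitum 2 and 4 and 9.61 and 10.41 in long-term restriction 2 and 4, a change of -1.90 (SE 0.331, edgeR adjusted p = 0.00477). Ptprd, a receptor tyrosine phosphatase that organises synapses (chr4:75941238-78211961, minus strand), had 11.75 and 12.12 against 9.82 and 10.59, a change of -1.68 (SE 0.312, adjusted p = 0.00692). Nrxn3 had 11.42 and 11.24 against 8.87 and 9.97, a change of -1.78 (SE 0.355, adjusted p = 0.0147). In none of the 3 did the groups overlap, which was required for naming and which chance often gives with 2 libraries against 2. The Nrxn3 values of old ad libitum mice also entered the ageing comparison, so its opposite signs there are not independent. Long-term restriction 1, left out with 4 nuclei, held 181 Celf2, 152 Ptprd and 73 Nrxn3 UMIs in a sum of 33863. Long-term restriction 2 held 19, 22 and 11 in 32039, and long-term restriction 3, left out with 7 nuclei, 16, 19 and 5 in 22518.

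Grm7, a metabotropic glutamate receptor (chr6:110645581-111567230, plus strand), changed by -1.99 (SE 0.424), St6galnac5, a ganglioside sialyltransferase (chr3:152817081-152982246, minus strand), by -4.15 (SE 0.887), and Lrrc7, the postsynaptic protein densin (chr3:158082891-158562221, minus strand), by -2.002 (SE 0.437). Their edgeR adjusted p-values were 0.0260, 0.0260 and 0.0289. St6galnac5 rested on 21 and 11 UMIs in old ad libitum 2 and 4 and 0 and 1 in long-term restriction 2 and 4, so its estimate depends on the prior count. Lrrc7 rested on 80 and 40 against 3 and 17 UMIs, and Grm7 on 74 and 68 against 3 and 22. The low library in both was long-term restriction 2, which had 13 nuclei and no member above 8000 UMIs. Without it the estimates were -1.52 for Grm7, -1.61 for Lrrc7 and -3.66 for St6galnac5 (edgeR adjusted p = 0.808 each). Without long-term restriction 4 they were -3.31, -3.04 and -6.86 (edgeR adjusted p = 0.0178, 0.0613 and 0.208). Over all single libraries left out, the estimates ran from -4.07 to -2.995 for Pde4d, -2.48 to -1.58 for Celf2, -2.23 to -1.36 for Ptprd and -2.61 to -1.37 for Nrxn3. Long-term restriction 1, not in the fit with its 4 nuclei, held 74 Grm7, 17 St6galnac5 and 54 Lrrc7 UMIs. Long-term restriction 3, not in the fit with its 7 nuclei, held 0, 2 and 4.

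Each of the 7 genes drew 43.1% to 61.0% of its UMIs from the 13 members above 8000 UMIs. Without those nuclei no gene was called, while all 7 estimates stayed negative. Nrxn3 then had an estimate of -0.25, Ptprd of -0.84, Grm7 of -0.96, Lrrc7 of -1.01 and St6galnac5 of -2.38 (edgeR adjusted p = 0.990 each). Pde4d had -2.69 and Celf2 -1.45 (edgeR adjusted p = 0.177 each). DESeq2 called 0, edgeR with the median UMIs as a covariate called 0, and removing the top-scored doublets gave 7 calls of which 0 were among these 7. Leaving out single libraries gave 0 calls without long-term restriction 2, 1 without old ad libitum 2 or 4, 3 without acute restriction 3, 4 without young 2, 9 without long-term restriction 4, 12 without young 3 and 29 without young 1, all of them lower.

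Genes at higher level in other nuclei mostly had negative estimates in this comparison. Of the 288 tested genes at least 2 times higher in other barcodes, 262 (91.0%) had a negative change, with a median of -1.20, against a median of -0.01 over all 2799. Of the 382 genes at least 2 times higher in the members, 94 (24.6%) were negative, with a median of 0.32. With age the same sets had medians of 0.27 and -0.03. Summed markers of CA3 neurons were 135 to 194 CPM in old ad libitum and 13.8 to 62.4 in long-term restriction libraries, with 2 to 3 and 3 to 4 of 5 markers at 0. Those of CA1 neurons were 382 to 486 and 156 to 332 CPM, with 0 to 2 and 1 to 2 of 5 at 0. Neither list overlapped, which chance often gives with 2 libraries against 2. The part of these markers in the result was not tested.

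**Figure D5:**
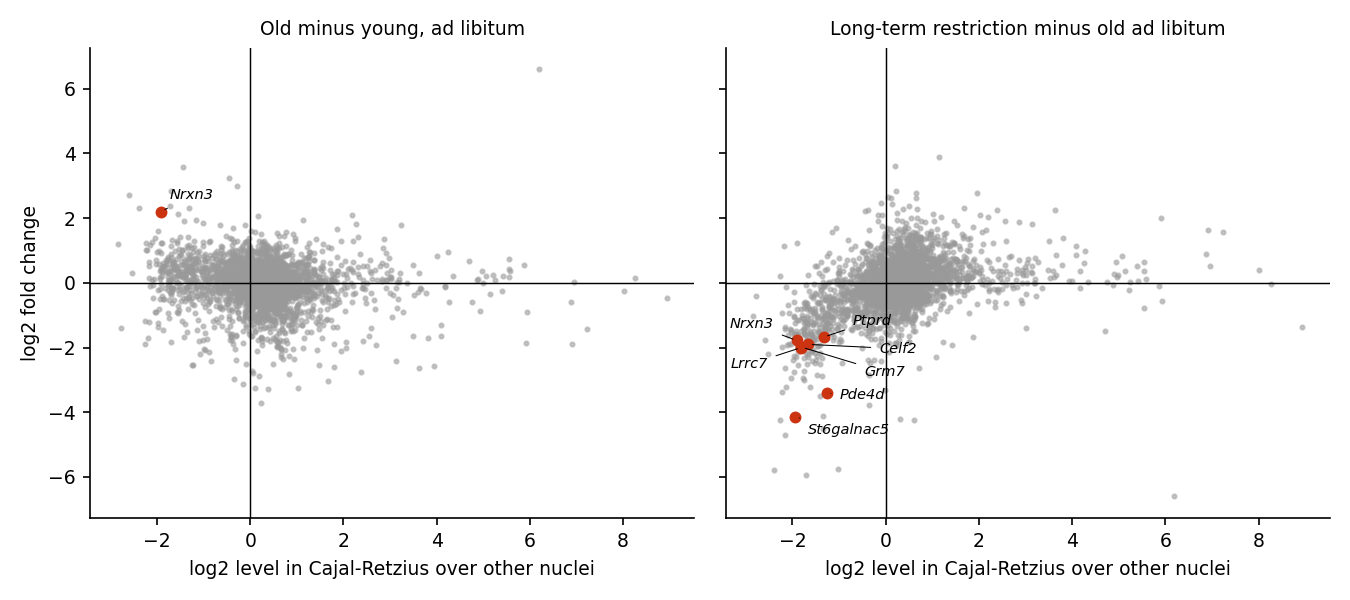
Each gene's log2 level in Cajal-Retzius nuclei over all other barcodes (x axis) against its log2 fold change (y axis) with age (left) and under long-term restriction (right), with called genes in red and named. On the right, genes left of the vertical line sit mostly below 0 (262 of the 288 genes at least 2 times higher in other barcodes), and all 7 called genes lie there.

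Of the gene lists, none held a called gene under long-term restriction. Of 12 tested glutamate receptor genes, 10 had a negative estimate (median -0.89), against 50.5% of all 2799 genes, and 6 had an unadjusted p below 0.05, among them Grin2a at -2.28 (SE 0.672, edgeR adjusted p = 0.364). Of 16 guidance genes, 11 did (median -0.87), with Unc5d, a netrin receptor, nearest to the threshold at -2.93 (SE 0.679, edgeR adjusted p = 0.0532). Of 6 GABA-A receptor genes, 5 did (median -0.58). Grin2a, Grin2b, Gria3, Grik2, Grik4 and Grid1 belong to the genes at least 2 times higher in other barcodes described above, as do Unc5d and Dab1. Dab1 had an estimate of -2.55 (SE 0.666, adjusted p = 0.338). Ndnf stood at 2122 and 2118 CPM in long-term restriction 2 and 4, above both old ad libitum libraries, with a change of 0.39 (SE 0.285, edgeR adjusted p = 0.860).

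Acute restriction had 1 library with at least 10 members, so 2 libraries per group were reached only with sums of at least 5 nuclei. With these, 0 of 2211 genes were called by edgeR against old ad libitum (0%), with 65 at an unadjusted p below 0.05, where chance alone gives 111. Long-term against acute restriction also gave 0 of 2211 (0%), with 86 at an unadjusted p below 0.05, against the same 111. DESeq2 also called 0 in both, over a larger set of 15998 genes. There 35 and 61 had an unadjusted p below 0.05, where chance alone gives 800. With sums of at least 20 nuclei, when each old group is 1 library, edgeR called 6 and 3. Leaving out 1 library at a time gave 0 calls throughout for acute restriction, while long-term against acute restriction had 4 calls without acute restriction 3, 2 without young 1 and 1 without old ad libitum 2 or 4. Without acute restriction 3 the acute arm is 1 library of 5 nuclei, and without old ad libitum 2 or 4 that group is 1 library, so the spread then comes from the other groups.

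The ageing change was then compared with that of the Reln-positive inhibitory nuclei of the same mice, in 1 edgeR model with mouse as a block. The difference passed the adjusted threshold for 3 of 8135 genes (0.0369%), and was positive for all 3. Chrm3, a muscarinic acetylcholine receptor (chr13:9875486-10360847, minus strand), had a difference of 3.03 (SE 0.576, adjusted p = 0.00128), with a change of -0.11 in the inhibitory nuclei. In the members it had 1, 6 and 3 UMIs in young 1 to 3 and 17 and 35 in old ad libitum 2 and 4, and 1 nucleus of old ad libitum 4 held 33 of its 35. Pcdh7, a protocadherin (chr5:57717967-58133230, plus strand), had a difference of 2.26 (SE 0.490, adjusted p = 0.0127), with 0, 11 and 13 UMIs against 39 and 26 and a change of -0.18 in the inhibitory nuclei. Nrxn3 had a difference of 1.91 (SE 0.416, adjusted p = 0.0127), with a change of 0.36 in the inhibitory nuclei. In Prox1-high nuclei Nrxn3 also rose with age, by 1.13 (SE 0.136, edgeR adjusted p = 0.00605), while Pcdh7 had an estimate of 0.57 (adjusted p = 0.0587) and Chrm3 of -0.08 (adjusted p = 0.835).

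Chrm3 and Pcdh7 were not called with age in the main fit of the members alone (2.84 and 1.95, edgeR adjusted p = 0.118 and 0.0907). Some alternatives called both, such as no filter on low counts. Neither was called with the median UMIs as a covariate or without nuclei over 8000 UMIs. The nuclei above 8000 UMIs held 60% of Chrm3 and 47.1% of Pcdh7 UMIs. The count of 3 became 11 against Prox1-high nuclei, 5 without long-term restriction 2, 1 without young 1 and 0 without young 3.

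The members also differed among themselves. In the 142 members thinned to 2000 UMIs, 1895 genes had a mean of at least 0.2 UMIs, with a median variance-to-mean ratio of 1.17, and 191 exceeded 2. The nuclei were pooled over libraries, ages and diets, with top-scored barcodes kept, so the ratios also hold differences between libraries and groups. Galntl6, an N-acetylgalactosaminyltransferase, had the highest ratio, 22.2, with a UMI in 35 nuclei and up to 37 in 1. Malat1 followed at 21.2 with a UMI in all 142, and Cntnap2, a neurexin-family adhesion protein, had 7.10, also with a UMI in all 142. Gpc5, a glypican, and Pde4b, a phosphodiesterase, had ratios of 11.4 and 12.7 with a UMI in 16 and 14 nuclei. The library with the largest share held 36.3% for Galntl6, 39.8% for Pde4b and 34.9% for Gpc5, against 17.0% for Malat1. These genes were ranked by their spread after it was seen.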

How the data were processed

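Hippocampal nuclei of 13 mice, 1 library each, were profiled with 10x 3' chemistry. The authors deposited UMI counts per gene and barcode, made with Cell Ranger 4.0.0 against mm10 per the submitters' processing notes. Intron counting, strand, doublet removal and correction for free RNA are not given in the sources used here, and no barcode was removed here as a doublet in the main analysis. Barcodes were kept from 500 genes upward if mitochondrial UMIs made up no more than 5%, and the rule of the report chose the members. The members, gene lists and tests were chosen with earlier results of these data known.

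Counts of members were summed per library, and sums of at least 10 nuclei entered edgeR 4.0.16 (TMM, filterByExpr, robust quasi-likelihood test, R 4.3.3) in 1 model of 4 groups, adjusted over 2803 genes by Benjamini-Hochberg. The 4 rule genes that passed the filter were left out of the counts, leaving 2799. Sums held 25962 to 112590 UMIs, which limits precision. DESeq2 1.42.0 was an alternative. Counts with known changes were simulated with a spread set by level alone, and with no nuclei carrying most of a gene's UMIs. The rates below need not hold for genes carried by few nuclei. On these counts, the ageing fit called 13 of 100 genes changed 2-fold and 69 of 100 changed 4-fold. It called 3 of 2603 unchanged genes. A gene that was not called may therefore still have changed. Shares and depths were compared by exact two-sided permutation tests over libraries. Scrublet's top scores were 0.8% per 1000 barcodes. Intervals and floors (3 counts) cover counting error only.

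Named genes were up to 12 called genes per direction and contrast with groups that did not overlap and at least 20 counts (all where 5 or fewer were called), up to 8 genes of the difference test, and the 15 leading genes detected in at least 25% of members.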

Additional observations from a re-analysis of the deposited data

Results flagged for a closer look

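Among the 4 long-term restriction libraries, replicate 1 stood apart in depth relative to its other barcodes: its members' median UMIs were 1.02 times theirs, from 4 nuclei. Its gap to the next library, as a share of the range of the 4, was 0.838, above Dixon's 95% critical value, which chance passes in about 1 of 20 groups. The ageing change differed between the Cajal-Retzius and Reln-positive inhibitory nuclei for Chrm3 (3.03 on the log2 scale), Pcdh7 (2.26) and Nrxn3 (1.91), by an interaction term in edgeR. Each of the 3 drew 47.1% or more of its member UMIs from 13 nuclei above 8000 UMIs, and the part of those nuclei in the differences was not tested.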

How the results depend on the processing

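With at most 3 libraries a group (10 to 43 nuclei each in the main fits, or 5 to 43 in the acute contrasts), the counts of called genes were unstable, and the causes were not tested. With sums of at least 20 nuclei, where every group but young has 1 library and its spread is taken from the young libraries, calls numbered 26 with age, 24 under long-term restriction, 6 under acute restriction, 3 between the restrictions and 0 for the difference from inhibitory nuclei. Calls with age numbered 7 with no filter on low counts, 0 with sums of at least 5 nuclei, 30 with a term for libraries numbered 1 and 0 with median UMIs as a covariate. Thinning also left out young 1, with 5 of its 10 members under 2000 UMIs, and gave 20 such calls. Calls with age numbered 16 without doublet-scored barcodes, 9 without nuclei over 8000 UMIs and 16 with a span trend removed. With at least 3 factors and sums of at least 5 nuclei together they numbered 16, and leaving out 1 library 1 to 31 (31 without young 1). With a replicate block they numbered 40 (39 lower) and long-term restriction calls 39 (38 lower). No label says that a number pairs mice, and with 2 libraries in each old group the deviations mirror each other, so correlations of -0.07 to -0.02 for 4 same-numbered pairs do not settle it; of the libraries numbered 1, only young 1 had enough nuclei. Long-term restriction calls were otherwise 33 with no filter, 5 with at least 5 nuclei, 29 with the term for libraries numbered 1, 0 with the covariate and 0 without deep nuclei. They were 2 with the span trend removed, 0 in DESeq2, 3 without acute restriction 3 and 29 without young 1. After thinning, and with at least 3 factors and sums of at least 5 nuclei together, the long-term group was 1 library, so those counts are left out. Leaving out a library of either old group left that group 1 library.

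Acute calls were 0 leaving out 1 library and long-term against acute calls 0 to 4. With the term for libraries numbered 1 they were 0 and 2. In the other settings at 5 nuclei that kept acute restriction 2 and 3, the replicate block among them, they were 0 and 0. With at least 3 factors, and after thinning, which took 1 of the 5 members of acute restriction 2, the acute group was 1 library. Those counts are left out. Calls of the difference from inhibitory nuclei were 11 against Prox1-high nuclei, 1 with the term for libraries numbered 1 by class, and 0 to 5 leaving out 1 library. The share's p over groups was 0.0376 to 0.488 in exact permutation tests leaving out 1 library (0.0376 without acute restriction 3). The ageing share difference reversed to 0.61 after thinning and 0.19 with at least 3 factors. Median UMIs per nucleus as a ratio to other barcodes reversed to 0.026 for long-term and 0.24 for acute restriction against old ad libitum. Long-term against acute restriction gave 0.017 with at least 5 nuclei and -0.22 to 0.18 leaving out 1 library (0.18 without long-term restriction 2). Of 193 alternatives for single genes, 91 stayed on their side of the threshold, 101 no longer passed it and 1 reversed. The reversed one was Nrxn3 under long-term restriction with at least 3 factors and sums of at least 5 nuclei together (0.31). The alternatives without nuclei over 8000 UMIs, with at least 3 factors for the calls, with at least 5 nuclei for depth, and leaving out 1 library for the acute contrasts were chosen after seeing the data. So was fitting a group with 1 library, and each alternative for the acute contrasts at 5 nuclei.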

Other observations

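Galntl6 UMIs were carried by few members: 56 of 216 nuclei held one, 16 held at least 5, and 10 nuclei held 83.2% of the total. Gpc5 and Pde4b were alike, with 10 nuclei holding 93.5% and 88.8%, and stood below their level in other barcodes (ratios of 0.31 and 0.39). Gm35188, a noncoding gene, was lower with age at an adjusted p below 0.05 in 8 of 21 settings (20 of edgeR and 1 of DESeq2). These settings overlap: some left out young 1 (sums of at least 20 nuclei, thinning and the fit without it). Others gave it a term of its own (the replicate block and the term for libraries numbered 1). With all members the edgeR estimate of Gm35188 was -2.77 (SE 0.658, adjusted p = 0.118). Among libraries with at least 10 members, Ndnf was detected in 75.9% (22 of 29) in acute restriction 3 and in 92.0% or more in each of the others.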
